A study of Mus musculus with 6 samples.

Results

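Olr1 encodes LOX-1, the lectin-like receptor for oxidized low-density lipoprotein. It is described here with 6 other scavenger receptor genes of mesenchymal cells in osteogenic cultures of mouse calvaria cells, with and without functional Fas ligand. The 7 members (Olr1, Cd36, Scara3, Scara5, Scarb1, Scarb2 and Colec12) are the rows of the deposited count table whose Ensembl identifiers carry these names, out of 57180 rows with an identifier. They were chosen from the scavenger receptor family with the wt and gld counts of these libraries already known, Olr1 for its large difference. Differences of the members between the groups are therefore a description without a test. Receptors restricted to macrophages were left out of the members and are given as a list of their own.

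The cells were isolated from the skull vault of C57BL/6 mice (wt, 3 libraries) and of B6Smn.C3-Faslgld/J mice (gld, labelled FasL KO, 3 libraries). The gld mice are homozygous for a mutation of Fasl, the gene of the ligand of the death receptor Fas, and carry it in every cell. Both groups were expanded and then differentiated in MEM alpha with fetal bovine serum, antibiotics, ascorbate and β-glycerophosphate, in parallel. Other gld cells of the study received recombinant human Fas ligand from day 14 for 72 h, and they are not analysed here. Ages are not labelled, nor is the culture day at which RNA was taken for the wt and gld libraries. It is also not said whether the 3 libraries of a group derive from different mice or dishes. The p-values therefore reflect the spread between these libraries alone, which may be technical. Fasl was listed at 0 in all 6 libraries, so it does not check the labels, and the gld mutation is a point mutation that need not lower its transcript.

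Scavenger receptors are cell surface proteins that bind modified lipoproteins and other polyanionic ligands and carry them into the cell. Class A receptors (Scara3, Scara5, Colec12) have a collagen-like stalk. Class B receptors (Cd36, Scarb1, Scarb2) cross the membrane at both ends and carry fatty acids, cholesterol esters or lysosomal enzymes. LOX-1, the class E receptor, has a C-type lectin-like domain and is best known from endothelium and from cells exposed to inflammatory cytokines or oxidized lipids.

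Olr1 (ENSMUSG00000030162) lies on GRCm38 chromosome 6, 129485244 to 129507165, minus strand. Its start region is shown because its transcript was nearly missing from 1 group. Capitals mark an AP-1 motif (TGANTCA) and a CCAAT box (CCAAT), the 2 of 5 searched motifs found in these 300 bases (RefSeq, GRCm38.p6, chr6:129507116-129507415, minus strand, 250 bases before to 50 after the start).
Olr1: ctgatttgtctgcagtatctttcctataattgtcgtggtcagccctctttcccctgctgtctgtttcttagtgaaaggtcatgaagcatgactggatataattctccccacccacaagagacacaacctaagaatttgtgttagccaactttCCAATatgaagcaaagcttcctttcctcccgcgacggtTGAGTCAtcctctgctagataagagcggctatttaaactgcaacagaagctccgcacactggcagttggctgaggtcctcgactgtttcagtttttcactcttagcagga
The AP-1 match begins 60 bases before the start (position −60) and the CCAAT box at −98. AP-1 is the dimer of Fos and Jun proteins. On both strands, 7.81% of 32851 promoters of this length hold TGANTCA and 37.4% hold CCAAT. The other motifs searched were the CRE (TGACGTCA), the TATA box (TATAAA) and the octamer (ATTTGCAT), held by 1.79%, 13.6% and 1.74% of promoters. A match is a run of letters and not a measured binding site.

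The libraries held 2011173 to 5245546 counts, and every gld library was deeper than every wt library. Levels are given in CPM (library-size-normalised tag counts on the TMM scale), and fold changes as log2, gld minus wt. The libraries are 3′ end libraries, in which a transcript gives about 1 tag whatever its length. Of the markers of the labelled cells, Col1a1 and Col1a2 of osteoblasts reached 7621 ± 1653 and 11321 ± 2537 CPM in wt (SD, n = 3), while Bglap, Spp1 and Sp7 had at most 20 counts over all libraries. Of the 3′ ends of these last genes, 89%, 0.7% and 58.3% lie in 1 transcript alone. Shares under 99% went with low counts in this table (values are given with Cd36), though not in every gene. Prrx1, at 0%, had 690 to 1346 counts in wt, and most of the Bglap end is not shared. The counts of Bglap, Spp1 and Sp7 are not read as low expression, and whether shared ends account for them was not tested. Over 10 osteoblast markers 7 were tested, of which 5 rose in gld (Col1a1, Col1a2, Phex, Ibsp and Dmp1) and Alpl fell. Of all genes tested, 9.74% rose and 7.69% fell. Phex (no wt count), Ibsp and Dmp1 passed the low-count filter (about 10 counts in 3 libraries) through their gld counts alone. Their direction was thus set by the filter. The Dmp1 call, on 2 counts in wt, was lost without any 1 of 5 libraries (all but wt 1), and the Ibsp call, on 3, without gld 1 (adjusted p = 0.0836, edgeR). Both were lost in limma-voom (adjusted p = 0.0768 and 0.0844). Of 7 mesenchymal markers 5 were tested: Col3a1 rose, and Thy1 and Prrx1 fell. The Prrx1 call was lost without wt 2, gld 2 or gld 3 (edgeR adjusted p = 0.132, 0.0518 and 0.101).

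Olr1 was present in every wt library, at 232, 325 and 272 CPM in wt 1, 2 and 3. In gld it stood at 3.49 CPM in gld 1, on 14 counts, and had no count in gld 2 or gld 3. The groups were far apart, and gld 1 alone carried Olr1 counts in its group. By counting error, 0 counts allow up to 0.791 CPM in gld 2 and 0.616 CPM in gld 3. The means were 277 ± 46.7 CPM in wt, against 1.16 ± 2.02 CPM for gld (SD, n = 3), a log2 fold change of −7.92 ± 0.53 (SE). The wt mean was 79.2 times the level in gld 1. Without gld 1, Olr1 was at least 799-fold lower in gld, against a floor of 3 counts over both remaining libraries (0.346 CPM). Fewer cells with the transcript and less transcript per cell cannot be told apart in these bulk libraries.

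Scara3 (ENSMUSG00000034463, chromosome 14, 65919394 to 65953935, minus strand) encodes a class A member known for protection against reactive oxygen. It had 326, 388 and 325 CPM in wt, against 528, 481 and 503 CPM in gld. All gld libraries were above all wt libraries, and the log2 fold change was 0.54 ± 0.12 (SE). Scara5 (ENSMUSG00000022032, chromosome 14, 65666403 to 65764826, plus strand), which encodes a receptor for ferritin, went the other way. It had 116, 108 and 107 CPM in wt, against 88.6, 81.7 and 49.9 CPM in gld, with gld 3 the lowest. Its log2 fold change was −0.59 ± 0.22 (SE), and −0.39 without gld 3.

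Colec12 (ENSMUSG00000036103, chromosome 18, 9707595 to 9882644, plus strand) encodes a scavenger receptor that also has a C-type lectin domain. Its levels were 20.7, 45.8 and 30.7 CPM in wt, against 46.4, 55.1 and 57.5 CPM in gld. The groups just missed each other, wt 2 lying next to gld 1, and the log2 fold change was 0.70 ± 0.29 (SE), or 1.03 without wt 2. Several annotated gene models overlap Colec12, with at most 43 counts each over the 6 libraries. Scarb2 (ENSMUSG00000029426, chromosome 5, 92441314 to 92506833, minus strand) encodes LIMP-2, a membrane protein of lysosomes. It had 422, 488 and 438 CPM in wt, against 467, 474 and 445 CPM in gld. The wt range enclosed the gld range, and the log2 fold change was 0.04 ± 0.11 (SE). Scaled by library size alone it was −0.12, so its direction is not settled.

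Cd36 (ENSMUSG00000002944, chromosome 5, 17781690 to 17888801, minus strand), the fatty acid translocase, was listed at 0 in all 6 libraries. So was Scarb1 (ENSMUSG00000037936, chromosome 5, 125277087 to 125341094, minus strand), which encodes the HDL receptor SR-BI. In GENCODE M21, 0% and 0.7% of the last 300 exonic bases of their principal transcripts lie in 1 transcript only. For each of the 5 counted members this share was 100%. Over the genes of all lists, 47 of 85 with a shared end and 9 of 83 with an end in 1 transcript were listed at 0. The 0 of Cd36 and Scarb1 is therefore not read as absence of the transcript.

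**Figure D1:**
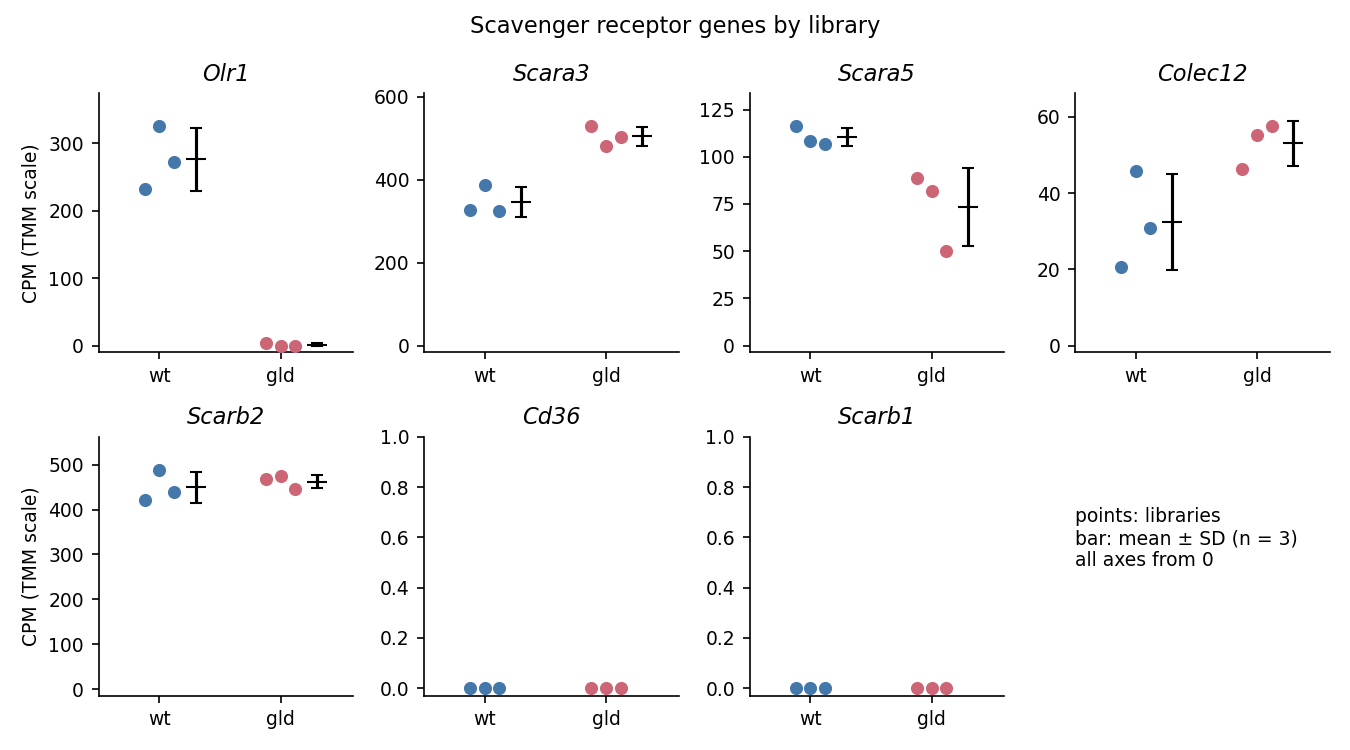
Level of each of the 7 scavenger receptor genes (CPM on the TMM scale, linear axes from 0, 1 panel a gene) in the 3 wt and 3 gld libraries, with mean ± SD beside the points. Olr1 lies at 232 to 325 CPM in wt and at 0 to 3.49 CPM in gld, Scarb2 overlaps between the groups, and Cd36 and Scarb1 are listed at 0.

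In the fit over all genes, 2 of the 5 tested members passed an edgeR adjusted p of 0.05, Scara3 higher and Olr1 lower in gld. Of all 8692 genes tested, 17.4% passed, 9.74% higher and 7.69% lower, and 18.5% of those with an end in 1 transcript. The wt and gld ranges did not overlap for 4 of the 5 (all but Scarb2), as for 33.3% of all genes. Because the members were chosen on this contrast, nothing is read from these shares. Scara5 also passed with scaling by library size alone, without the low-count filter and in limma-voom, and Colec12 passed without wt 2. The median log2 fold change was 0.04 over the 5 members and 0.02 over all genes tested. With library size alone, the median of all genes was −0.14.

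**Figure D2:**
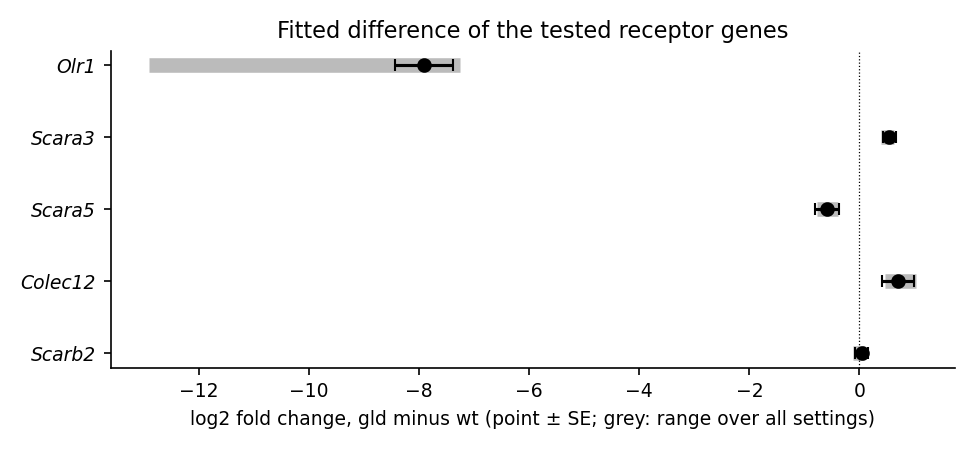
Fitted log2 fold change, gld minus wt, of the 5 tested members (point ± SE), with a grey bar for the range over all settings tried. The bar of Olr1 runs down to −12.91, a value fitted without gld 1, where its size depends on the prior count, and the bar of Scarb2 crosses 0.

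Set against each other within a library, the receptors changed their proportions, and such proportions do not depend on scaling between libraries. Olr1 made up 20.8%, 24.0% and 23.2% of the counts of the 5 counted members in wt, and 0.308%, 0% and 0% in gld. Scara3 made up 28.5% ± 0.76 in wt, against 46.1% ± 1.85 in gld (SD, n = 3). Scarb2, whose level overlapped, made up 37.0% ± 0.91 in wt, against 42.3% ± 1.10 in gld. These shares include Olr1 in the sum, and for Scarb2 this sets the direction. Of the counts of the other 4 genes, Scarb2 made up 47.9% ± 0.67 in wt, against 42.3% ± 1.04 in gld, while Scara3 still made up more in gld (36.9% ± 0.79 and 46.2% ± 1.87). The summed level of the 5 was 1215 ± 125 CPM in wt, against 1094 ± 39.2 CPM for gld (SD, n = 3), with ranges that overlapped.

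The count ratio of Scara3 to Scarb2 was 0.774, 0.795 and 0.742 in wt, against 1.13, 1.02 and 1.13 in gld, without overlap. In order of tags per library, Scarb2 led Scara3 in all wt libraries, and Scara3 led Scarb2 in all gld libraries. The ratio of Scara3 to Scara5 was 2.81, 3.58 and 3.04 in wt, against 5.97, 5.89 and 10.1 in gld, with gld 3 apart from the other two. Colec12 gave the fewest tags of the 5 in each wt library, and Olr1 the fewest in each gld library.

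**Figure D3:**
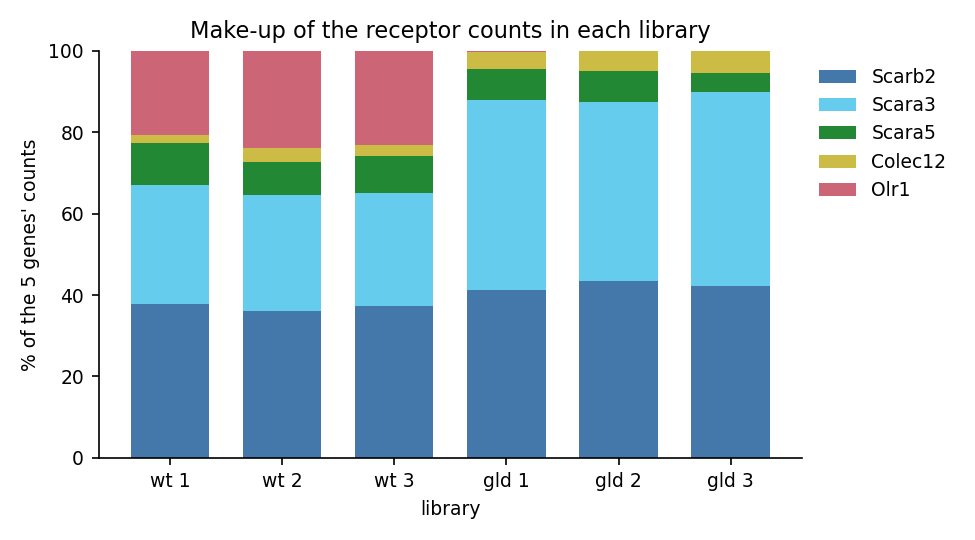
Share of each of the 5 counted receptor genes in their summed counts, 1 stacked bar (0 to 100%) for each of the 6 libraries. Olr1 takes 20.8% to 24.0% of the wt bars and at most 0.308% of the gld bars, and Scara3 takes the larger share in gld.

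Olr1 sits in a cluster of C-type lectin receptor genes, in which its neighbours were counted rarely or not at all. Of 14 annotated genes within 100 kb, 8 were listed at 0 and 1 could be tested. That gene was Gabarapl1, an autophagy gene of the Atg8 family, whose nearer edge lies 25.995 kb from Olr1. It had 1330, 1587 and 1815 counts in wt, against 640, 581 and 911 in gld, and fell by 1.75 ± 0.14 on the log2 scale (SE, edgeR adjusted p = 3.54e-07). The adjacent lectin genes, looked up after their counts were seen, were too low to test. In each lectin gene named here 0% of the 3′ end lies in 1 transcript alone, so low counts are not read as low expression, as for Cd36. Clec1a had 11, 15 and 4 wt counts and Clec9a 4, 1 and 10, while both had 0 in every gld library. Clec7a, the receptor Dectin-1 of myeloid cells, had 6, 7 and 4 counts in wt, against 5, 3 and 56 in gld.

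Scara5 and Scara3 are neighbours too, 154.6 kb apart on chromosome 14. Of the 3 genes annotated between them, looked up afterwards, Pbk and Ccdc25 were tested and did not pass (log2 fold changes −0.69 ± 0.35 and 0.63 ± 0.28). Clu, which encodes the extracellular chaperone clusterin, begins 14.5 kb beyond Scara3. It fell by 0.81 ± 0.10 on the log2 scale (SE, edgeR adjusted p = 3.13e-05), from 2347 ± 73.8 to 1334 ± 125 CPM (SD, n = 3), beside Scara3 at 0.54.

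The genes whose pattern was most like that of Olr1 were ranked over the 6 libraries by the root mean square difference in log2 CPM, each gene centred on its own mean. Among 4116 genes the nearest was Mmp10, at 0.53 log2 units, then Krt23 at 0.91, Il11 at 1.14, Fam110c at 1.23 and Pax3 at 1.34. Mmp10, the gene of stromelysin 2, had 103, 148 and 115 CPM in wt, against 1.75, 0 and 0 CPM in gld. Krt23, a type I keratin gene, had 89.3, 73.0 and 74.6 CPM in wt, against 3.24, 0 and 0 CPM in gld. Like Olr1, both had gld counts in gld 1 only. The cytokine gene Il11 had 1097, 846 and 992 CPM in wt, against 3.99, 8.44 and 1.23 CPM in gld. Fam110c had 166, 186 and 155 CPM in wt, against 7.98, 2.11 and 1.23 CPM in gld. Pax3, which encodes a paired-box transcription factor, had 32.9, 52.8 and 32.5 CPM in wt and no gld count. These genes were picked for this likeness, so their group difference has no test here.

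**Figure D4:**
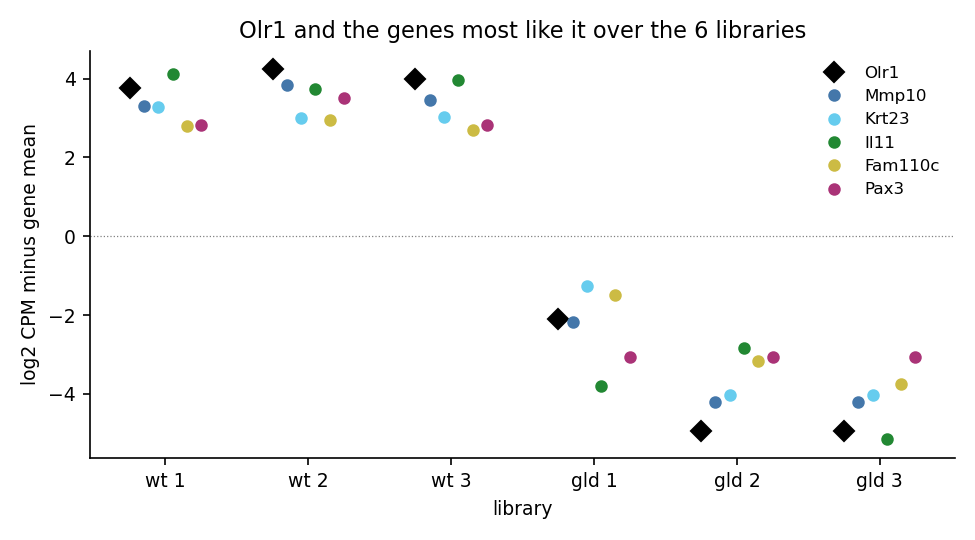
Log2 CPM minus the gene's mean over the 6 libraries, for Olr1 (diamonds) and the 5 genes most like it (circles), by library. All 6 genes are above 0 in wt and below 0 in gld, and Olr1, Mmp10, Krt23 and Fam110c are higher in gld 1 than in the other gld libraries.

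Of Olr1 and these 5 genes, 5 were matched in the promoter table, and 4 of the 5 hold the letters TGANTCA in a promoter. They are shown with 16 bases on each side, the AP-1 letters in capitals, because the genes beside Olr1 were picked for a like pattern (RefSeq, GRCm38.p6). Olr1 is at chr6:129507203-129507241 (minus strand), Mmp10 at chr9:7502263-7502301 (plus), Il11 at chr7:4778217-4778255 (minus) and Fam110c at chr12:31073852-31073890 (plus).
Olr1: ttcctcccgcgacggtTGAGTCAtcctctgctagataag
Mmp10: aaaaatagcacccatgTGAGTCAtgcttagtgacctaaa
Il11: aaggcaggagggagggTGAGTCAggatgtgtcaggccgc
Fam110c: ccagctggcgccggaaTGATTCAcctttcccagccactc
The matches begin at −60 in Olr1, −63 in Mmp10, −98 in the second listed promoter of Il11 and −100 in Fam110c. Krt23 had no match. Over all tested genes with a listed promoter, 277 of 5101 (5.43%) held the motif. It was in 6.61% of 454 genes called lower, 7.29% of 576 called higher and 5.04% of 4071 not called. The 6 genes were picked by their values, so their share was not tested.

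Among 19 other scavenger receptors, the 5 that rose in gld included Marco, Mrc1, Cd68 and Msr1, known from macrophages. Of 8 tested, 5 rose, none fell and 3 did not pass, with a median log2 fold change of 3.55 against 0.02 over all genes. Of all genes tested, 9.74% rose and 7.69% fell. Marco, Mrc1, Cd68 and Msr1 passed the low-count filter through their gld counts alone, which set their direction. The split and the median are therefore not read as a shift of these receptors. Marco, a class A receptor of macrophages, had no count in wt, against 260, 242 and 492 counts in gld, and was at least 218-fold higher in gld (edgeR adjusted p = 2.46e-07). Mrc1, the mannose receptor, also without a wt count, was at least 73.1-fold higher (adjusted p = 0.000223, edgeR). Cd68, with 1 wt count, had a pooled ratio of 124 (95% exact counting interval 22.0 to 4929), and its fitted log2 change of 6.49 became 8.61 without wt 3 and 5.46 without gld 3. Ssc5d, a soluble scavenger receptor of mesenchymal and other cells, rose from 7.97 ± 1.32 to 73.2 ± 9.28 CPM (SD, n = 3, edgeR adjusted p = 1.48e-06). Msr1, named after its value was seen, had 0, 26 and 1 counts in wt, against 108, 129 and 377 in gld, so wt 2 sets its fold. Its fitted change rose from 3.92 to 7.73 without wt 2. The endocytic receptor gene Lrp1 just missed the threshold (edgeR adjusted p = 0.0545), at 975 ± 106 CPM in wt, against 768 ± 66.7 CPM in gld. Its log2 fold change was −0.35 ± 0.12 (SE), and its wt and gld ranges did not overlap. In limma-voom, Msr1, Cd68 and Mrc1 did not pass (adjusted p = 0.0804, 0.0685 and 0.0716), and in DESeq2 Msr1 did not (adjusted p = 0.0676).

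The tested macrophage markers were higher in gld, as were these receptors. Of 12 markers, 5 were tested and all 5 rose (C1qa, C1qb, C1qc, Laptm5 and, named afterwards, Lyz2), beside 9.74% of all genes tested. All but Lyz2 had at most 8 counts in any wt library and passed the low-count filter through their gld counts alone. Their direction was thus set by the filter, and nothing is read from this count. In limma-voom 4 of the 5 passed, C1qa being lost (adjusted p = 0.0699). The summed level of the 12 markers was 3.29 to 124 CPM in wt, against 2156 to 6089 CPM in gld, with wt 2 the highest of wt and gld 3 the highest of gld. Most of this sum was Lyz2, at 3.29, 120 and 18.4 CPM in wt, against 1782, 2941 and 4984 CPM in gld. The defining markers Adgre1, Csf1r, Cx3cr1, Fcer1g and Tyrobp were listed at 0, of which 4 (all but Csf1r) have an end shared between transcripts. Olr1 was higher in wt and the 5 tested markers were higher in gld, and the part of macrophages in the member results was not tested.

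Endothelial markers, relevant because LOX-1 is known from endothelium, summed to 0.94 to 5.22 CPM in wt, against 4.48 to 15.7 CPM in gld. Of 10, 8 were listed at 0, among them Pecam1, Cdh5 and Vwf. Both tested markers, Kdr and Plvap, did not pass (edgeR adjusted p = 0.469 and 0.232). Of the 8 at 0, 6 have an end shared between transcripts, so this sum is a low estimate, and the part of endothelial cells in the Olr1 result was not tested. Of 8 adipocyte markers, relevant to Cd36, the 1 tested, Car3, had no wt count and was at least 46.8-fold higher in gld, on 33, 59 and 124 counts. Car3 passed the low-count filter through gld alone, which set its direction. Adipoq had 1 count in all, and 5 others (Cebpa, Cfd, Cidec, Lep and Plin1) were listed at 0, of which 3 have an end shared between transcripts. Of 6 epithelial markers 2 were tested: Cdh1, without a wt count, was at least 42.2-fold higher in gld, and Krt18 did not pass. As for Car3, the filter set the direction of Cdh1. The 4 others (Epcam, Krt5, Krt8 and Krt14) were listed at 0, of which 2 have an end shared between transcripts. Without gld 3, 2 epithelial markers passed, Cdh1 and Krt18. Krt18 then went the other way from Cdh1, with 28, 3 and 29 counts in wt, against 1 and 0 in gld 1 and gld 2.

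Among other genes of lipoprotein uptake, Sorl1 was higher and Vldlr and Mylip were lower in gld. The sorting receptor gene Sorl1 rose by 2.04 ± 0.36 on the log2 scale (adjusted p by edgeR = 0.000883). Vldlr, the VLDL receptor gene, fell by 2.51 ± 0.66 (edgeR adjusted p = 0.0156), a call lost without wt 1, wt 3 or gld 2 (adjusted p = 0.0528, 0.114 and 0.0536). Mylip, the gene of a ubiquitin ligase, named afterwards, fell by 0.75 ± 0.24 (edgeR adjusted p = 0.0401), also lost without wt 2, wt 3, gld 1 or gld 3 (adjusted p = 0.0848 to 0.164).

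Lipid uptake and handling genes, the company of CD36 and SR-BI, gave 1 increase and 3 decreases. Of 13 tested of 27, 9 did not pass, with a median of 0.03, and the 9 genes listed at 0, Pparg, Nr1h3 and Apoe among them, all have a shared end. Lpl, the lipoprotein lipase gene, fell from 574 ± 102 to 115 ± 20.6 CPM (SD, n = 3, edgeR adjusted p = 2.13e-07). Abca1, the cholesterol exporter gene, fell from 420 ± 32.9 to 121 ± 14.6 CPM (edgeR adjusted p = 3.45e-07). Cavin1, a caveolar coat gene, fell by 0.31 ± 0.10 on the log2 scale (adjusted p by edgeR = 0.0385), a call lost without wt 3, gld 1, gld 2 or gld 3 (adjusted p = 0.0652 to 0.160) and without the low-count filter (0.129). The fatty acid binding protein gene Fabp5 had 0, 0 and 5 counts in wt, against 61, 63 and 17 in gld. Its rise (edgeR adjusted p = 0.0144) was lost without gld 1 or gld 2 (adjusted p = 0.0703 and 0.0892) and in limma-voom (0.140), and its fitted change went from 4.31 to 8.40 without wt 3 and to 3.72 without wt 2. With gld 1 or gld 2 left out, 2 genes of the list passed in place of 4.

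Ligands and partners of the receptors gave 2 increases and 2 decreases among 10 tested of 19, with a median of −0.04. Thbs1, the gene of thrombospondin 1, a ligand of CD36, had 2704, 3319 and 2662 CPM in wt, against 703, 748 and 545 CPM in gld. It fell by 2.12 ± 0.13 on the log2 scale (adjusted p by edgeR = 4.96e-08). The integrin gene Itgb3 fell from 72.1 ± 20.5 to 8.16 ± 3.78 CPM (SD, n = 3, edgeR adjusted p = 2.46e-05). The lysosomal membrane genes Lamp1 and Lamp2, whose products share their compartment with LIMP-2, rose by 0.44 ± 0.12 and 0.52 ± 0.11 (edgeR adjusted p = 0.0238 and 0.00269), beside Scarb2 at 0.04. The Lamp1 call was lost without any 1 of the 6 libraries (adjusted p = 0.05001 to 0.158) and with scaling by library size alone (0.165).

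Among genes of LOX-1 shedding and signalling, 4 rose and 1 fell of 10 tested of 16, with a median of 0.39. Icam1, an adhesion molecule gene, had 1 count in wt, against 50, 81 and 67 in gld, a pooled ratio of 134 (95% exact counting interval 23.7 to 5302), and its fitted log2 change of 6.67 became 8.92 without wt 1. Vcam1, Nfkbia and Rhoa rose by 0.45 ± 0.11, 0.49 ± 0.12 and 0.59 ± 0.16 on the log2 scale (adjusted p by edgeR = 0.00810, 0.00918 and 0.0177). Scaled by library size alone, which lowers all changes, none of these 3 passed (adjusted p = 0.0776, 0.0672 and 0.0672), and 2 genes of the list were called in place of 5. Leaving out gld 2 lost Vcam1 (adjusted p = 0.0622), gld 3 lost Nfkbia and Rhoa (0.0650 and 0.110), and wt 3 lost Rhoa (0.0830), with 3 genes of the list called without gld 2 or without gld 3. Il6, named afterwards, fell by 1.34 ± 0.38 (edgeR adjusted p = 0.0222), lost without wt 1, wt 2 or gld 2 (adjusted p = 0.105, 0.0659 and 0.0787). Adam10 and Bace1, genes of enzymes that shed LOX-1, did not pass, at 0.33 ± 0.17 and −0.21 ± 0.36.

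Iron genes, relevant to the ferritin receptor gene Scara5, gave 2 increases and 1 decrease among 7 tested of 10, with a median of 0.12. Slc40a1, the iron exporter gene, had 3, 1 and 6 counts in wt, against 76, 54 and 126 in gld (log2 fold change 4.03 ± 0.66, edgeR adjusted p = 0.000500). The ferrireductase gene Steap3 had 7, 8 and 7 counts in wt, against 85, 145 and 117 in gld (3.39 ± 0.48, edgeR adjusted p = 0.000139). Trf, the transferrin gene, fell from 561 ± 99.3 to 189 ± 24.7 CPM (SD, n = 3, edgeR adjusted p = 3.48e-06). Tfrc, the transferrin receptor gene, was listed at 0 and has a shared end.

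**Figure D5:**
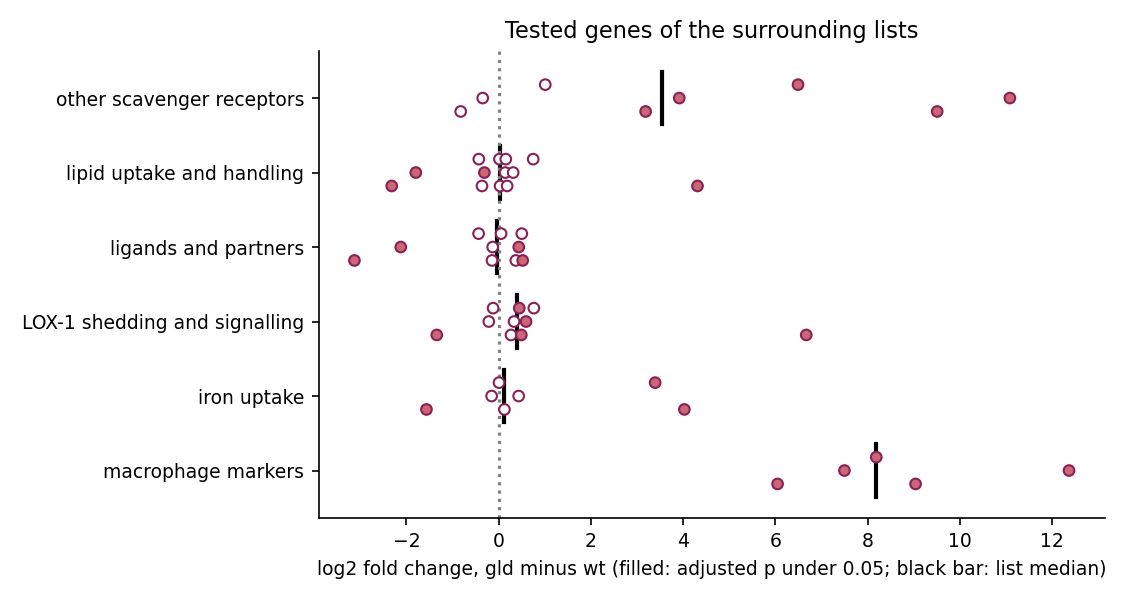
Log2 fold change, gld minus wt, of each tested gene in 6 lists around the receptors (circles, filled where the edgeR adjusted p was under 0.05), with list medians as black bars and the median of all genes, 0.02, as a dotted line. Fitted values of genes without wt counts, such as Marco and C1qc, depend on the prior count. Other scavenger receptors and macrophage markers lie mostly to the right, many of them tested through their gld counts alone. The list of lipid genes lies on both sides of 0.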

How the data were processed

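Per the labels' protocols, total RNA from 3 wt and 3 gld samples was made into 3′ end libraries (QuantSeq FWD), sequenced single-end at 75 nt, trimmed with Cutadapt and aligned with STAR. FastQC, Trim Galore, DESeq2 and mm10 are named in the submitters' processing notes. No source used here gives the counter, its strand setting or its annotation, so reads of overlapping or antisense genes cannot be assigned with certainty. The deposited table holds whole-number counts per Ensembl gene, not normalized. Its 1 row without an identifier (no counts, 0% of the total) was left out, and 1 identifier was not of full length. Names and positions of 51932 identifiers came from GENCODE M21 (GRCm38).

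Counts were filtered with filterByExpr (about 10 counts in 3 libraries, 15 in total), scaled by TMM and compared by the quasi-likelihood F-test of edgeR 4.0.16 (R 4.3.3), Benjamini-Hochberg adjusted over 8692 genes, with a threshold of 0.05. A gene with few or no counts in a group passed the filter through the other group alone, which set its direction. Counts and medians of the lists hold such genes, Icam1, Fabp5 and Slc40a1 among them. Standard errors are the absolute log2 fold change over the square root of F. The script was tested on simulated data. Floors of 3 counts (over the whole group for folds, per library for single levels) and intervals cover counting error only, since no molecular identifiers are mentioned. Alternatives were DESeq2 size factors, library size, no filter, DESeq2 1.42.0, limma-voom (limma 3.58.1), a replicate block and leaving out each library. Members, lists and motifs were chosen with earlier results of these data known. Named are all members, up to 4 called genes a list by adjusted p (or 2 by count where none was called), the 5 most like Olr1 with a mean normalized count of at least 50 (unnamed models and pseudogenes passed over), and tested neighbours within 100 kb. The likeness used a prior count of 2. Some results of the gene lists are not reported here.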

Additional observations from a re-analysis of the deposited data

How the results depend on the processing

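The calls of Olr1 and Scara3 held under all 12 alternatives, with log2 fold changes from −12.91 (without gld 1) to −7.26 for Olr1 and from 0.39 to 0.63 for Scara3. Both genes were chosen with these counts known, so this describes the fits and is no test. The number of members called was 2 or 3, that of all genes called 1224 to 1695, and 1276 among genes with an end in 1 transcript, a restriction chosen after seeing the data. Scarb2 changed sign with library size alone (−0.12), without wt 1 (−0.0053) and without gld 2 (−0.0016), its leave-one-out values lying between −0.0053 and 0.10. Library size alone also turned the split of calls from 847 higher and 668 lower to 720 higher and 975 lower. Whether equal numbers of wt and gld libraries mark pairs is not labelled. Same-numbered libraries had correlations of their deviations from −0.023 to −0.015, and the other pairs from −0.0052 to 0.026. These values cannot decide it, since the deviations sum to 0 within each group. With the replicate block, 1359 genes and the same 2 members were called, and calls of Cavin1, Fabp5, Mylip and Dmp1 were lost, which left 2 calls among the lipid uptake genes in place of 4. The 5 genes most like Olr1 were the same with a prior count of 0.5. Shallower wt libraries limit low genes there: 3 counts equal 0.921 to 1.41 CPM in wt and 0.616 to 0.791 CPM in gld.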

Other observations

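Among 606 genes called lower in gld with at least 20 CPM in wt, 588 had counts in all 3 gld libraries and 3 had none. Another 5 had counts in 1 gld library only: Olr1, Mmp10 and Krt23 in gld 1, and Slc35d3 and Trbc2 in gld 2, genes looked up after their counts were seen.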
